A study of Mus musculus with 12 samples.

Results

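The genes described here encode the subunits of the mitochondrial respiratory chain and of ATP synthase, together with complex I assembly factors whose symbols share the same stem. Members were all genes whose symbol starts with Nduf, Uqcr, Cox4 to Cox8 or Atp5, plus Sdha, Sdhb, Sdhc, Sdhd, Cyc1 and Cycs, that had a probe set naming no other gene. This gave 92 of the 18193 genes measured: 6 core and 28 accessory subunits of complex I, 8 complex I assembly factors, 4 subunits of complex II, 9 of complex III, somatic cytochrome c, 11 subunits of complex IV, 8 isoforms of complex IV subunits and related proteins known mainly from other tissues or conditions, and 17 ATP synthase subunits. Ndufa4 and its paralogue Ndufa4l2 are counted with complex IV, where the Ndufa4 protein is now placed. Cox7b and Atp5if1 were not analysed here.

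Total RNA of sorted mouse CD8 T cells was measured on 12 microarrays, 1 per sample. PD-1+ Tim-3+ tumour-infiltrating lymphocytes (TIL, n = 4) were also 2B4+ by sort and are called exhausted in the labels. PD-1+ Tim-3- TIL (n = 3) were also 2B4- and are called stem-like. Both came from tumours of B16F10-GP, a mouse skin melanoma line injected into the flank, taken between day 17 and day 19 after injection. Naive CD8 T cells (n = 5) came from the spleen of naive mice. All mice were labelled strain C57bl/c, aged 6 to 8 weeks. The naive cells differ from both TIL groups in organ as well as in tumour exposure, so these cannot be told apart. The labels do not say whether replicates came from separate mice or from pools, and p-values measure only the spread between these samples.

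The respiratory chain moves electrons from NADH, through complex I, and from succinate, through complex II, to ubiquinone, then by complex III and cytochrome c to complex IV, which reduces oxygen. Complexes I, III and IV pump protons across the inner mitochondrial membrane, and ATP synthase uses their return to make ATP. All members are encoded in the nucleus, while a few central subunits are encoded in mitochondrial DNA and are not among them. Activated CD8 T cells raise respiration together with glycolysis, and reduced mitochondrial function has been described in exhausted T cells of tumours.

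Promoters of nuclear respiratory genes are known for sites of 3 transcription factors or factor families, NRF1, the ETS factors, which include GABP, and YY1. RefSeq promoters (build GRCm38.p6, 250 bases before to 50 after the transcript start) were found for 75 of the 92 members. The NRF1 core, GCGCA followed by any base and GCGC, read like the others on both strands, was present in 17 of 75 members (22.7%), against 8.63% of the 14368 tested genes with a promoter and 12.0% of the 8857 of them above log2 intensity 5.71. The ETS core CCGGAAG was present in 19 members (25.3%), against 15.0% and 21.1%, and the YY1 core AAGATGGCG in 7 members (9.33%), against 2.54% and 3.78%. No matches of different motifs overlapped. The stretches printed here, the 100 bases before the start on the minus strand, are those of members that differed between Tim-3+ TIL and naive cells and hold a whole NRF1 match there, or that differed between the TIL groups and hold any match there. Capitals mark the matches, which are NRF1 matches in all but Ndufaf1, where the match is to the ETS core.
Atp5k, chr5:108434400-108434499: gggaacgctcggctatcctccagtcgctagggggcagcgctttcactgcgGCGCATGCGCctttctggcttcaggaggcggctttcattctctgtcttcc
Ndufa8, chr2:36049339-36049438: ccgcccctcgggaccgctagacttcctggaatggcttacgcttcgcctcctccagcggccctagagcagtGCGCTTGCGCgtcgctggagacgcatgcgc
Ndufs5, chr4:123718187-123718286: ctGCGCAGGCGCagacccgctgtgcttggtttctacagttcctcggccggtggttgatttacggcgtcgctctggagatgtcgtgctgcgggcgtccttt
Sdha, chr13:74350241-74350340: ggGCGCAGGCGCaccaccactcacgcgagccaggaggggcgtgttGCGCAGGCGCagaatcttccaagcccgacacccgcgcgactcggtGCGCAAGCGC
Ndufaf1, chr2:119662835-119662934: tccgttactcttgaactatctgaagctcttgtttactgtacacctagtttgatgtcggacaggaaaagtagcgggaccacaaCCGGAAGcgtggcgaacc
A match is a stretch of letters and not a measured binding site. Sdha, with 3 matches, was lower in Tim-3+ TIL than in naive cells, and Atp5k, Ndufa8 and Ndufs5, with 1 each, were higher. In Tim-3+ TIL against naive, 6 of the 17 members with an NRF1 match were higher and 2 lower, beside 30 and 4 of the 58 without one. Of all genes, 20.1% were higher and 21.4% lower there.

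All values are log2 of the deposited probe set intensity. A gene took the probe set with the highest mean over the arrays, and levels are not compared between genes, since each probe set has its own brightness. Differences were called at an adjusted p below 0.05 in limma, adjusted with Benjamini-Hochberg over all 18193 genes. Array medians lay between 58.8 and 63.0 on the linear scale. Group means under log2 5.71, which is percentile 40 over the genes tested, may be at background. Shares of all genes given below include dim genes, and in each comparison these shares were larger with a filter on dim genes.

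The arrays of every group fell into 2 sets that the labels do not name, and members took part in that split. Set A holds replicates 1 and 2 of Tim-3+ TIL, replicate 1 of Tim-3- TIL and replicates 1 and 2 of naive cells, and set B the other 7 arrays. Within groups, 12 of the 92 members (13%) were higher by more than 0.5 in set A than in set B, against 1.26% of all genes. For 5 control transcripts, the excess of 3' over 5' signal, a measure of RNA integrity and amplification, averaged 0.13 ± 0.19 in Tim-3+, 0.23 ± 0.09 in Tim-3- and 0.22 ± 0.15 in naive arrays (mean ± SD). Centred on the group means this excess had values of -0.145 for set A and 0.103 for set B. Its part in the members' levels was not tested. Results are therefore also given from a fit blocked on the sets and within the sets, of which set A has a single Tim-3- array. The sets were chosen with earlier results of these data known. The difference between them may thus be overstated, and p-values of the blocked fit may be too small.

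Cd8a lay between 12.61 and 12.95 on all arrays and Cd3e between 12.16 and 12.37. Of 5 measured T cell genes, Cd8b1, the CD8 beta chain, was lower than in naive cells by -0.70 in Tim-3+ TIL and -0.76 in Tim-3- TIL (adjusted p = 2.11e-05 and 3.24e-05), and the other 4 passed in no comparison. Melanoma genes were uneven among the tumour samples. Their summed linear intensity over 7 genes lay between 301 and 1167 in Tim-3+ TIL, 391 and 646 in Tim-3- TIL and 419 and 555 in naive cells, and no value was at 0. Tyrp1, a pigment enzyme, read 8.29, 4.67, 7.55 and 6.55 in Tim-3+ TIL and 5.52, 5.61 and 7.34 in Tim-3- TIL, against 2.94 to 3.38 in naive cells. Dct, Mlana and Tyr were also higher in Tim-3+ TIL than in naive cells, by 2.92, 1.12 and 0.76. In Tim-3- TIL Dct was higher by 2.24. Pmel, another pigment cell gene, was lower than in naive cells, by -1.24 in Tim-3+ TIL and -0.88 in Tim-3- TIL (adjusted p = 0.000284 and 0.00896). In Tim-3+ TIL 4 of the 7 melanoma genes were thus higher and 1 lower (57.1% and 14.3%, against 20.1% and 21.4% of all genes). In Tim-3- TIL 2 were higher and 1 lower (28.6% and 14.3%, against 16.1% and 18.3%). Of 7 macrophage genes, summed at 214 to 306 in Tim-3+ TIL, 174 to 199 in Tim-3- TIL and 187 to 252 in naive cells, 4 lay below log2 5.71 on all arrays. Cd14, a monocyte and macrophage receptor and 1 of those 4, was higher in Tim-3+ TIL by 0.89 against Tim-3- TIL (adjusted p = 0.00778) and by 1.09 against naive (adjusted p = 0.000149). It was the only macrophage gene called in these comparisons (14.3%, against 7.77% and 20.1% of all genes higher). In Tim-3- TIL against naive 0 macrophage genes were higher and 1, Fcgr3, was lower, by -0.44 (adjusted p = 0.0302, 14.3%, against 18.3% of all genes). All 4 measured cell cycle genes were higher in each of the 3 comparisons, and their summed intensity was 6928 to 9983 in Tim-3+ TIL, 3323 to 5988 in Tim-3- TIL and 256 to 368 in naive cells. Foxp3, of regulatory T cells, was lower in Tim-3+ TIL than in Tim-3- TIL by -1.004, and Cd4 was higher than in naive cells by 0.99 in Tim-3+ and 0.83 in Tim-3- TIL. The part of other cells and of cell cycle genes in the members' differences was not tested.

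Between the TIL groups, 9 members were higher in Tim-3+ cells and 0 were lower. They were 3 complex I assembly factors, the complex I subunit and acyl carrier protein Ndufab1, Sdhb of complex II, cytochrome c, Cox5a of complex IV, and both Atp5pb and Atp5o of the ATP synthase stalk. The differences were modest, between 1.30-fold and 1.75-fold. In RNA of a sorted population, fewer cells of a type and less RNA per cell cannot be told apart. The 9 members are 9.78% of 92, close to the 7.77% of all genes called higher. With the filter on dim genes, 10 members were higher, beside 12.2% of the genes kept. The members thus showed no excess of higher calls with or without the filter, unlike in the blocked fit given below. With the filter 0 members were lower, beside 8.96% of the genes kept. The count of 0 lower members stands beside 5.77% of all genes. It was 0 by limma in each alternative tried, and 0 members were lower, against 17 higher, at an unadjusted p below 0.05.

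Most of the other members pointed the same way without passing the test. The log2 change was positive for 78 of 92 members (84.8%), against 51.9% of all genes. Its median was 0.15 over the members and 0.011 over all genes. With the array sets as a block the median was 0.13, and within sets A and B it was 0.14 and 0.16. The blocked fit called 19 of the 92 members higher, a larger share than the 10.8% of all genes, and 0 lower (7.61% of all genes). The count of 9 higher members was 3 when Tim-3- replicate 2 was left out (4.99% of all genes). It was 5 without Tim-3+ replicate 1 (6.24% of all genes), the array with the brightest melanoma genes, and the median without that array was 0.14.

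**Figure D1:**
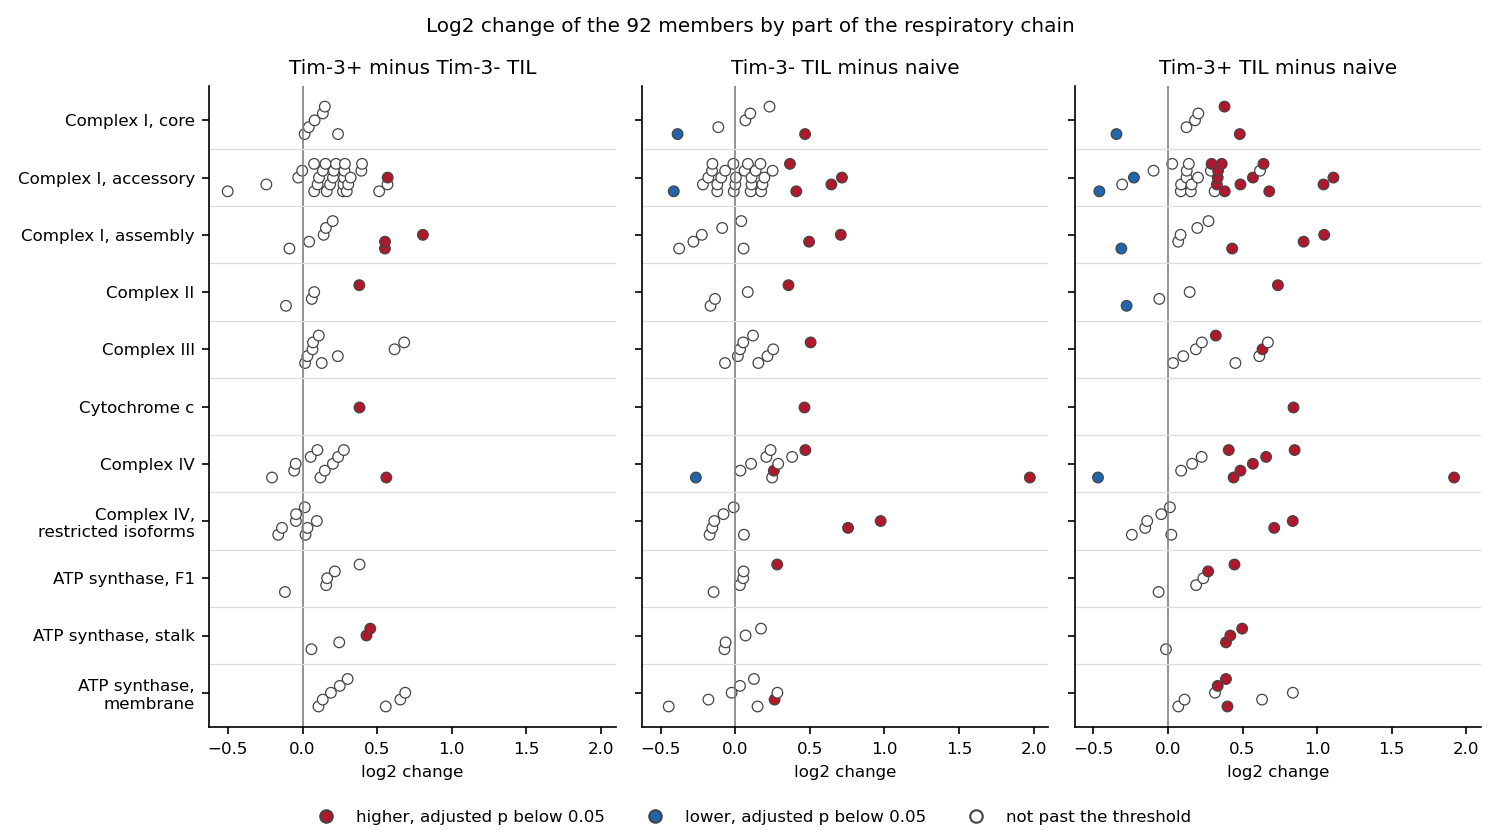
Log2 change of each of the 92 members (points), by part of the respiratory chain (rows), for Tim-3+ minus Tim-3- TIL (left), Tim-3- TIL minus naive (middle) and Tim-3+ TIL minus naive (right). Filled points passed an adjusted p of 0.05 and open points did not. Between the TIL groups 9 members are filled, all higher, while Tim-3+ TIL against naive holds 38 higher and 6 lower members.

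Complex I is built from modules by assembly factors that leave before the enzyme is complete. Of the 8 among the members, 3 were higher in Tim-3+ TIL (37.5%, against 7.77% of all genes). Ndufaf7, an arginine methyltransferase that in human cells modifies a core subunit early in assembly, read 8.93, 8.88, 8.79 and 8.69 in Tim-3+ TIL and 8.21, 8.23 and 8.37 in Tim-3- TIL, against 7.77, 7.73, 7.93, 7.73 and 7.72 in naive cells. The 3 groups did not overlap on any array. The log2 change between the TIL groups was 0.55 ± 0.10 (SE), or 1.47-fold (adjusted p = 0.00188).

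Ndufaf1, an assembly factor of the membrane arm, read 7.03, 6.90, 6.92 and 6.72 in Tim-3+ TIL and 6.16, 6.26 and 6.60 in Tim-3- TIL, with naive cells between 6.41 and 6.75. The TIL groups did not overlap, and naive cells lay across both. Its log2 change was 0.55 ± 0.13 (adjusted p = 0.00985). It was 0.80 among the arrays of set A and 0.39 among those of set B. Ndufaf3, which in human cells acts with Ndufaf4 in early assembly, read 8.72, 8.91, 8.26 and 8.37 in Tim-3+ TIL and 7.78, 7.58 and 7.92 in Tim-3- TIL, against 7.80 to 8.53 in naive cells. The 2 Tim-3+ arrays of set A were the highest of all. Its log2 change of 0.81 ± 0.19 (1.75-fold, adjusted p = 0.00953) was 1.04 within set A and 0.56 within set B, and leaving out Tim-3- replicate 2 ended the call. The other 5 assembly factors, Ndufaf2, Ndufaf4, Ndufaf5, Ndufaf6 and Ndufaf8, had log2 changes of -0.09 to 0.20 and did not pass.

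Ndufab1 is a subunit of complex I and also the acyl carrier protein of mitochondrial fatty acid synthesis. It was the 1 subunit among the 34 of complex I to pass (2.94%, against 7.77% of all genes). It read 11.05, 10.87, 10.68 and 10.68 in Tim-3+ TIL and 10.49, 10.08 and 10.18 in Tim-3- TIL, against 9.89 to 10.43 in naive cells. The TIL groups did not overlap. It differed by 0.57 ± 0.16 (adjusted p = 0.0251). Ndufs5, a small accessory subunit with an NRF1 match in its promoter, had a log2 change nearly as large, 0.57 ± 0.18, and missed the threshold (adjusted p = 0.0504), which it passed in the blocked fit at 0.50 (adjusted p = 0.00446). The 6 core subunits, which form the arm that takes electrons from NADH, had log2 changes of 0.01 to 0.24 and did not pass, and the median over the 34 subunits was 0.19. The blocked fit called 6 of the 34 higher, beside 10.8% of all genes, and 1 of them was a core subunit, Ndufs1, at 0.26 (adjusted p = 0.0447).

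In complex II, which also serves as the succinate dehydrogenase of the citrate cycle, the subunits differed among themselves. Sdhb, the iron-sulphur subunit, read 11.02, 10.87, 10.87 and 10.78 in Tim-3+ TIL and 10.49, 10.42 and 10.60 in Tim-3- TIL, against 10.24, 10.19, 10.05, 10.14 and 10.11 in naive cells. The 3 groups were ordered with no overlap. Between the TIL groups the log2 change was 0.38 ± 0.10 (adjusted p = 0.0170), and against naive it was 0.74 ± 0.09 in Tim-3+ TIL (adjusted p = 6.58e-06) and 0.36 ± 0.09 in Tim-3- TIL (adjusted p = 0.00775). The call between the TIL groups failed when either Tim-3+ replicate 1 or Tim-3- replicate 2 was left out.

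Sdha, the flavoprotein subunit that binds Sdhb and oxidises succinate, ran the other way. It read 11.93, 11.85, 11.92 and 11.95 in Tim-3+ TIL and 12.09, 11.95 and 12.03 in Tim-3- TIL, against 12.22, 12.20, 12.11, 12.20 and 12.21 in naive cells. Tim-3+ TIL lay below all naive arrays. The log2 change against naive was -0.28 ± 0.08 in Tim-3+ TIL (adjusted p = 0.00853) and -0.17 ± 0.08 in Tim-3- TIL (adjusted p = 0.144). Between the TIL groups it was -0.11 ± 0.09 and did not pass. Sdhc and Sdhd, the membrane anchors, passed in no comparison, with log2 changes between -0.14 and 0.15, but this depended on the probe set. A second, dimmer probe set of Sdhd gave 0.66 in Tim-3+ TIL and 0.36 in Tim-3- TIL against naive, and both comparisons passed with that probe set or with the mean of the 2. For Sdhc the second probe set gave 0.74 between the TIL groups, and that comparison passed in the same 2 alternatives. Within set A and set B, the change of Sdhb in Tim-3+ TIL against naive was 0.73 and 0.72, and that of Sdha was -0.32 and -0.24.

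**Figure D2:**
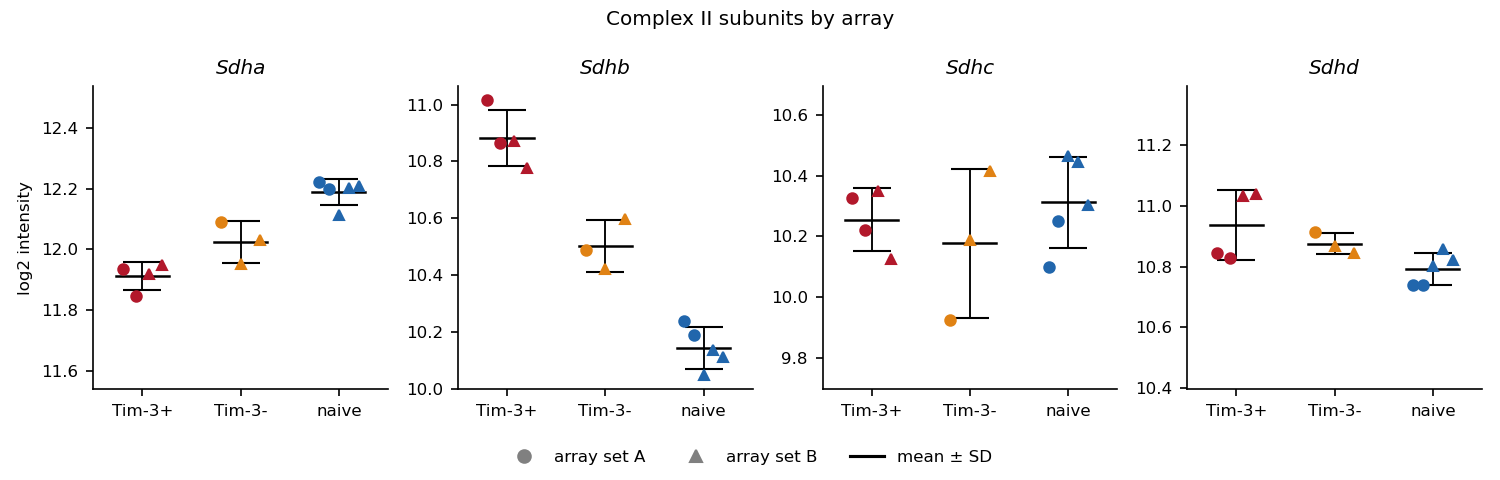
Log2 intensity of the 4 complex II subunits on each array in Tim-3+ TIL, Tim-3- TIL and naive cells (left to right). Circles are arrays of set A, triangles arrays of set B, and bars the mean ± SD. The means of Sdhb are 10.88 in Tim-3+ TIL, 10.50 in Tim-3- TIL and 10.15 in naive cells, those of Sdha run the opposite way at 11.91, 12.02 and 12.19, and Sdhc overlaps between all groups.

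Cycs, the somatic cytochrome c that carries electrons between complexes III and IV and triggers apoptosis once it reaches the cytosol, read 11.95, 11.83, 11.92 and 12.10 in Tim-3+ TIL. It read 11.55, 11.44 and 11.73 in Tim-3- TIL and 11.08, 11.11, 11.13, 11.16 and 11.07 in naive cells. No 2 groups overlapped. The log2 change was 0.38 ± 0.10 between the TIL groups (adjusted p = 0.0215), 0.46 ± 0.10 in Tim-3- TIL against naive (adjusted p = 0.00169) and 0.84 ± 0.09 in Tim-3+ TIL against naive (adjusted p = 2.53e-06). Its level differed little between the array sets, with set A 0.06 below set B. The call between the TIL groups failed when Tim-3+ replicate 4, or replicate 1 or 2 of Tim-3- TIL, was left out. A further dim probe set of the gene, at 3.23, 3.43 and 4.31 in Tim-3+ TIL, Tim-3- TIL and naive cells, ran the other way, and 2 brighter ones ran the same way as the one used.

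Cox5a, a nuclear-encoded subunit of complex IV on the matrix side, read 12.25, 12.22, 11.98 and 11.96 in Tim-3+ TIL and 11.81, 11.33 and 11.49 in Tim-3- TIL, against 11.0003 to 11.56 in naive cells. The TIL groups did not overlap, and the array of set A was the highest in Tim-3- TIL. The log2 change between them was 0.56 ± 0.16 (adjusted p = 0.0306). The other 10 members of complex IV had log2 changes of -0.20 to 0.28 and did not pass. The 9 complex III subunits had log2 changes of 0.02 to 0.68 and did not pass, with Uqcr11 and Uqcrq, small subunits without redox groups, at 0.68 and 0.62.

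Both members called in ATP synthase belong to the peripheral stalk, which holds the catalytic head still while the rotor turns. Atp5pb, the b subunit, read 11.70, 11.68, 11.52 and 11.47 in Tim-3+ TIL and 11.19, 11.14 and 11.16 in Tim-3- TIL, against 10.99 to 11.23 in naive cells. All Tim-3+ arrays lay above all others. The log2 change was 0.43 ± 0.10 (adjusted p = 0.0113), with 0.50 in set A alone and 0.35 in set B alone. Atp5o, the subunit that joins the stalk to the head, read 11.69, 11.64, 11.40 and 11.37 in Tim-3+ TIL and 11.09, 11.03 and 11.10 in Tim-3- TIL, against 10.87 to 11.38 in naive cells. Its naive arrays of set A reached the lower Tim-3+ arrays. Its change was 0.45 ± 0.14 (adjusted p = 0.0469).

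The calls between the TIL groups were not equally firm. Those of Ndufaf7, Ndufaf1 and Atp5pb held without any single array. That of Atp5o was lost in 7 of 12 fits that each left out 1 array, including each of the 3 Tim-3- arrays. Those of Cox5a and Ndufab1 were lost in 4, when replicate 1 or 2 of Tim-3+ TIL, or replicate 2 or 3 of Tim-3- TIL, was left out. Of the 9 members, 5 had other probe sets, and among those above log2 5.71 all 8 changed in the same direction.

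**Figure D3:**
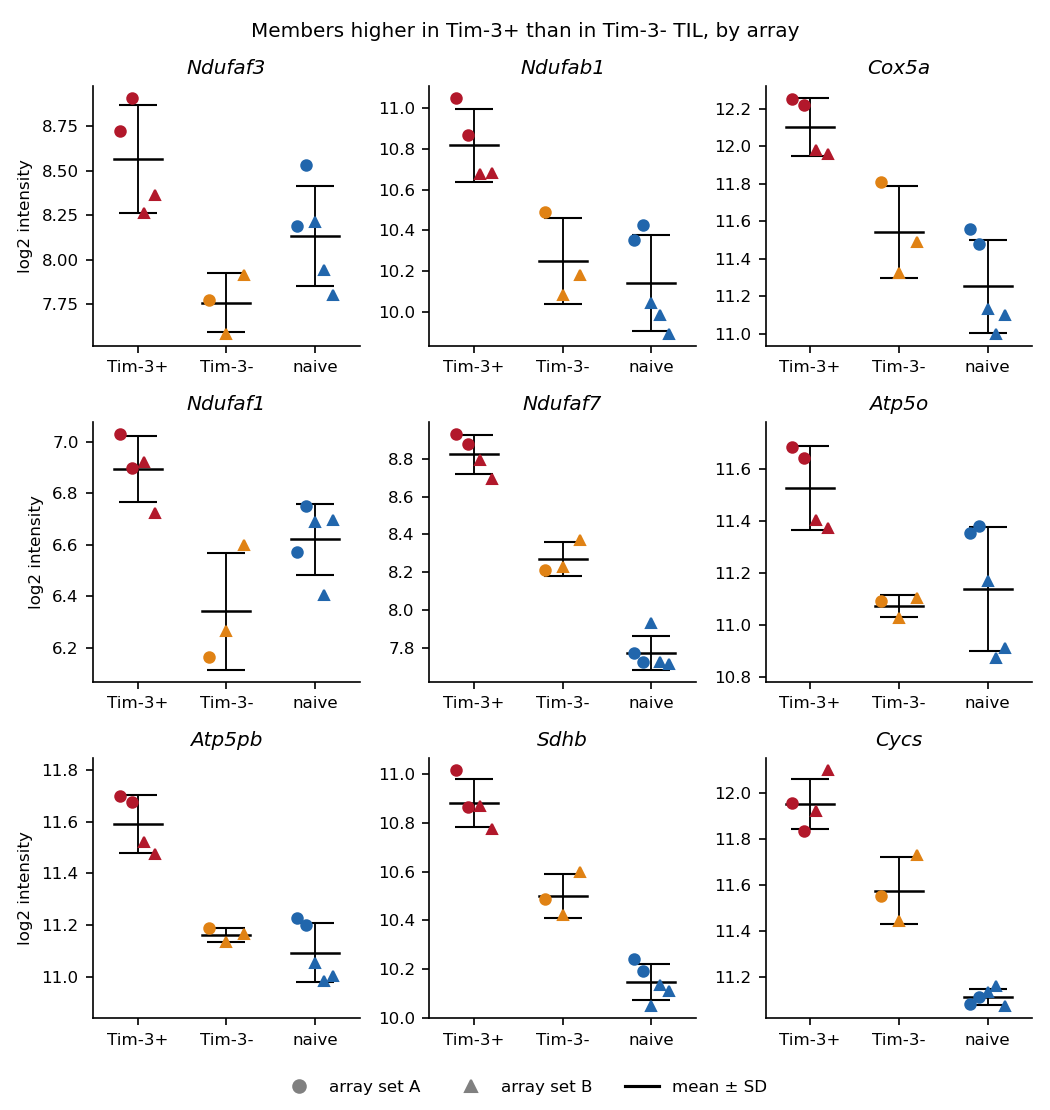
Log2 intensity of the 9 members called higher in Tim-3+ TIL than in the Tim-3- group, on each array of Tim-3+ TIL, Tim-3- TIL and naive cells (left to right in each panel). Circles are arrays of set A, triangles arrays of set B, and bars the mean ± SD. In Ndufaf7, Sdhb and Cycs all 3 groups are apart, with naive cells lowest, while in Ndufaf1 and Ndufaf3 the Tim-3- mean lies below the naive mean.

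Against naive cells, more members were higher in Tim-3+ TIL than in any other comparison. In Tim-3+ TIL 38 members were higher (41.3%, against 20.1% of all genes) and 6 lower (6.52%, against 21.4% of all genes). In Tim-3- TIL 17 were higher (18.5%, against 16.1% of all genes) and 3 lower (3.26%, against 18.3% of all genes), so the share higher was close to that of all genes. With the filter on dim genes, 41 members were higher and 6 lower in Tim-3+ TIL, beside 30.1% and 29.1% of the genes kept. In Tim-3- TIL 17 were then higher and 3 lower, beside 23.7% and 25.9% of the genes kept. The 2 comparisons share the naive arrays. The median log2 change over the members was 0.28 in Tim-3+ TIL and 0.065 in Tim-3- TIL, where all genes had medians of -0.065 and -0.063. The change was positive for 77 of 92 members in Tim-3+ TIL (83.7%, against 41.7% of all genes) and for 60 in Tim-3- TIL (65.2%, against 41.6%).

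In the blocked fit, Tim-3+ TIL against naive had 50 members higher (22.6% of all genes) and 7 lower (25.3%), with a median of 0.27. Tim-3- TIL against naive then had 25 higher (18.4%) and 4 lower (21.8%), with a median of 0.08. Within sets A and B the median was 0.21 and 0.29 in Tim-3+ TIL and 0.041 and 0.13 in Tim-3- TIL. Between 31 and 44 members were higher in Tim-3+ TIL when 1 array was left out. In Tim-3- TIL the 17 became 10 without Tim-3- replicate 3 and 11 without naive replicate 5 or Tim-3- replicate 1, and the 3 lower members became 1 without Tim-3- replicate 2.

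Among the 34 complex I subunits, 14 were higher and 3 lower in Tim-3+ TIL (41.2% and 8.82%, against 20.1% and 21.4% of all genes). In Tim-3- TIL 5 were higher and 2 lower (14.7% and 5.88%, against 16.1% and 18.3%). The largest rise was that of Ndufb8, an accessory subunit of the membrane arm. It read 11.46, 11.33, 11.06 and 11.04 in Tim-3+ TIL and 11.08, 10.65 and 10.77 in Tim-3- TIL, against 10.38, 10.38, 10.02, 9.88 and 9.91 in naive cells. Both TIL groups lay above all naive arrays. It rose by a log2 change of 1.11 ± 0.14 in Tim-3+ TIL (2.16-fold, adjusted p = 2.15e-05) and of 0.72 ± 0.16 in Tim-3- TIL (1.64-fold, adjusted p = 0.00253).

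Ndufb1, another accessory subunit of the membrane arm, rose by 1.04 ± 0.20 in Tim-3+ TIL and by 0.64 ± 0.22 in Tim-3- TIL (adjusted p = 0.000645 and 0.0326), and the second call was lost without any 1 Tim-3- array or without naive replicate 4 or 5. Ndufv2, a core subunit with an iron-sulphur cluster near the entry of NADH, rose by 0.48 ± 0.10 in Tim-3+ TIL and by 0.47 ± 0.11 in Tim-3- TIL. On this probe set the TIL groups had nearly the same level, 10.97 ± 0.14 and 10.96 ± 0.09 (SD). A second Ndufv2 probe set, nearly as bright, gave only 0.20 and 0.07 against naive in the same order, and a dimmer one gave 0.34 and 0.32. Ndufs8, another core subunit, rose by 0.38 ± 0.08 in Tim-3+ TIL. Its 0.23 ± 0.08 in Tim-3- TIL missed the threshold (adjusted p = 0.0509) and passed in the blocked fit (adjusted p = 0.0324). Ndufs7, the core subunit that holds the last cluster before ubiquinone, fell in both, by 0.35 ± 0.09 in Tim-3+ TIL and by 0.39 ± 0.10 in Tim-3- TIL. The call in Tim-3- TIL was lost without Tim-3- replicate 2. Ndufv1, a further core subunit, passed in no comparison, and Ndufs1 passed only between the TIL groups in the blocked fit.

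The accessory subunit Ndufa10 fell by 0.23 ± 0.08 in Tim-3+ TIL (adjusted p = 0.0347) and by 0.41 ± 0.09 in Tim-3- TIL (adjusted p = 0.00200). It read 11.23, 11.24, 11.05 and 11.24 in Tim-3+ TIL and 10.9952, 11.03 and 10.98 in Tim-3- TIL, against 11.35 to 11.52 in naive cells. The Tim-3- arrays were the lowest. The call in Tim-3+ TIL was lost without Tim-3+ replicates 3 or 4 or naive replicates 1 or 2. Ndufa6, an accessory subunit, fell by 0.46 ± 0.10 in Tim-3+ TIL (adjusted p = 0.00229). Of the assembly factors, Ndufaf7 rose by 1.05 ± 0.09 and Ndufaf2 by 0.91 ± 0.17 in Tim-3+ TIL, and by 0.49 ± 0.10 and 0.71 ± 0.19 in Tim-3- TIL. The call of Ndufaf2 in Tim-3- TIL was lost without Tim-3- replicate 3. Ndufaf3 also rose in Tim-3+ TIL, by 0.43 ± 0.16 (adjusted p = 0.0479), and that call was lost in 9 of 12 fits that left out 1 array. Ndufaf8, needed for the stability of another assembly factor in human cells, fell by 0.31 ± 0.10 in Tim-3+ TIL and lost its call without Tim-3+ replicates 1 or 2 or naive replicate 3.

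In complex III the Rieske iron-sulphur protein Uqcrfs1 stood apart. It read 10.05, 10.01, 10.08 and 10.05 in Tim-3+ TIL and 9.91, 9.94 and 9.92 in Tim-3- TIL, against 9.42, 9.50, 9.46, 9.26 and 9.43 in naive cells. The arrays of each TIL group lay close together and above all naive arrays. Relative to naive it rose by 0.63 ± 0.08 in Tim-3+ TIL (adjusted p = 1.44e-05) and by 0.51 ± 0.09 in Tim-3- TIL (adjusted p = 0.000351). Uqcrc1, a core protein without a redox group, rose by 0.32 ± 0.10 in Tim-3+ TIL and lost that call without Tim-3+ replicate 4. Cytochrome c1, encoded by Cyc1, had a log2 change of 0.19 ± 0.09 in Tim-3+ TIL and did not pass.

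Complex IV, without its 8 isoforms known mainly from other tissues or conditions, had the largest share higher in Tim-3+ TIL among the 5 complexes. There 7 of 11 were higher and 1 lower (63.6% and 9.09%, against 20.1% and 21.4% of all genes), with a median log2 change of 0.44. Of those isoforms 2 were higher (25%), and with them counted in, the share was close to that of ATP synthase. In Tim-3- TIL 3 of the 11 were higher and 1 lower (27.3% and 9.09%, against 16.1% and 18.3%), and the median was 0.25. Cox5a rose by 0.85 ± 0.14 in Tim-3+ TIL (adjusted p = 0.000191) while its 0.29 ± 0.15 in Tim-3- TIL did not pass. In the blocked fit Tim-3- TIL passed too, at 0.31 (adjusted p = 0.00713). Cox7a2 and Cox5b rose in both, by 0.57 ± 0.14 and 0.41 ± 0.08 in Tim-3+ TIL and by 0.47 ± 0.15 and 0.26 ± 0.09 in Tim-3- TIL. The calls of both in Tim-3- TIL were lost in several fits that left out 1 array. Cox8a, Cox6b1 and Cox6c rose in Tim-3+ TIL by 0.66 ± 0.14, 0.49 ± 0.18 and 0.44 ± 0.11. The call of Cox6b1 (adjusted p = 0.0465) was lost in 7 of 12 fits that left out 1 array and with quantile normalization. In Tim-3- TIL Cox8a, Cox6b1 and Cox6c did not pass in the main fit. They passed there in the blocked fit, at 0.41, 0.28 and 0.25 (adjusted p = 0.00139, 0.0158 and 0.0306). Cox6a1 and Ndufa4 passed in no comparison, and Cox4i1 passed only in the blocked fit, in Tim-3+ TIL, at 0.20 (adjusted p = 0.0374).

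Cox7c had the largest change of all members, on probe sets that were dim in naive cells. It read 7.95, 7.88, 7.75 and 7.83 in Tim-3+ TIL and 8.09, 7.73 and 7.91 in Tim-3- TIL, against 5.97, 5.61, 6.21, 5.54 and 6.35 in naive cells. The TIL groups overlapped with each other and lay far above naive cells, of which replicates 2 and 4 fell below log2 5.71. It rose by 1.92 ± 0.16 in Tim-3+ TIL (adjusted p = 2.08e-07) and by 1.97 ± 0.17 in Tim-3- TIL (adjusted p = 6.96e-07). A second probe set of the gene gave 6.99 in Tim-3+ TIL, 6.53 in Tim-3- TIL and 4.77 in naive cells.

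Cox7a2l, a relative of Cox7a2, had the largest fall among the members in Tim-3+ TIL. It read 12.39, 12.39, 12.62 and 12.45 in Tim-3+ TIL and 12.60, 12.73 and 12.67 in Tim-3- TIL, against 12.84, 12.86, 12.88, 13.02 and 13.05 in naive cells. Both TIL groups lay below all naive arrays. It fell by 0.47 ± 0.09 in Tim-3+ TIL (adjusted p = 0.000549) and by 0.26 ± 0.10 in Tim-3- TIL (adjusted p = 0.0455), a call lost in 10 of 12 fits that left out 1 array.

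Several complex IV subunits have a second isoform known from muscle, lung or testis. Cox4i2, Cox6a2, Cox7b2, Cox8b, Cox8c and Ndufa4l2, a paralogue induced by hypoxia, passed in no comparison, with log2 changes between -0.24 and 0.10. Alternatives changed this for Cox8c, lower in Tim-3+ TIL against naive in the blocked fit by -0.26 (adjusted p = 0.0344) and also with quantile normalization, and for Cox8b, lower in Tim-3- TIL in set A alone by -0.62. Cox7b2 lay between 1.88 and 2.79 on all arrays. Cox7a1, the heart and skeletal muscle isoform of subunit 7a, read 5.62, 5.53, 5.58 and 5.72 in Tim-3+ TIL and 5.81, 5.57 and 5.87 in Tim-3- TIL, against 4.37 to 5.04 in naive cells. The TIL arrays lay above all naive arrays, but around or below the level that may be background, so the changes may be understated. The log2 change was 0.84 ± 0.14 in Tim-3+ TIL and 0.97 ± 0.15 in Tim-3- TIL (adjusted p = 0.000173 and 0.000133).

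Cox6b2, the testis isoform of subunit 6b, read 6.70, 6.88, 5.86 and 6.08 in Tim-3+ TIL and 6.99, 6.32 and 5.96 in Tim-3- TIL, against 5.28 to 5.93 in naive cells. The high TIL arrays were those of set A, and Tim-3+ replicate 3 lay among the naive arrays. The log2 change in Tim-3+ TIL was 0.71 ± 0.24 (adjusted p = 0.0262), with 1.12 in set A alone and 0.30 in set B alone. In Tim-3- TIL it was 0.76 ± 0.26 (adjusted p = 0.0353), with 1.32 and 0.47 in the separate sets. Both calls were lost without naive replicates 2 or 5, among others.

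ATP synthase had 8 of 17 members higher in Tim-3+ TIL (47.1%, against 20.1% of all genes) and 2 in Tim-3- TIL (11.8%, against 16.1%). In the head and rotor, Atp5d, the delta subunit at the foot of the rotor, rose by 0.45 ± 0.10 in Tim-3+ TIL (adjusted p = 0.00156). It rose by 0.28 ± 0.10 in Tim-3- TIL (adjusted p = 0.0496), a call lost in 11 of 12 fits that left out 1 array. The catalytic subunit Atp5b rose by 0.27 ± 0.09 in Tim-3+ TIL (adjusted p = 0.0271), with 0.36 in set A alone and 0.17 in set B alone, and lost its call without Tim-3+ replicates 1 or 2 or naive replicate 5. Atp5a1 and Atp5c1, the alpha and gamma subunits, passed in no comparison, with log2 changes of -0.06 ± 0.10 and 0.19 ± 0.08 in Tim-3+ TIL. Atp5c1 passed there in the blocked fit, at 0.19 (adjusted p = 0.0380), with the filter on dim genes and with the trend. With the mean of its probe sets it was called lower instead, at -0.515, since its second, dimmer probe set gave -1.22. In the stalk, Atp5pb, Atp5j and Atp5o rose in Tim-3+ TIL by 0.50 ± 0.09, 0.42 ± 0.11 and 0.39 ± 0.12, and Atp5h, at -0.01 ± 0.08, did not pass. The call of Atp5o was lost without Tim-3+ replicates 1 or 2 or naive replicates 4 or 5.

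**Figure D4:**
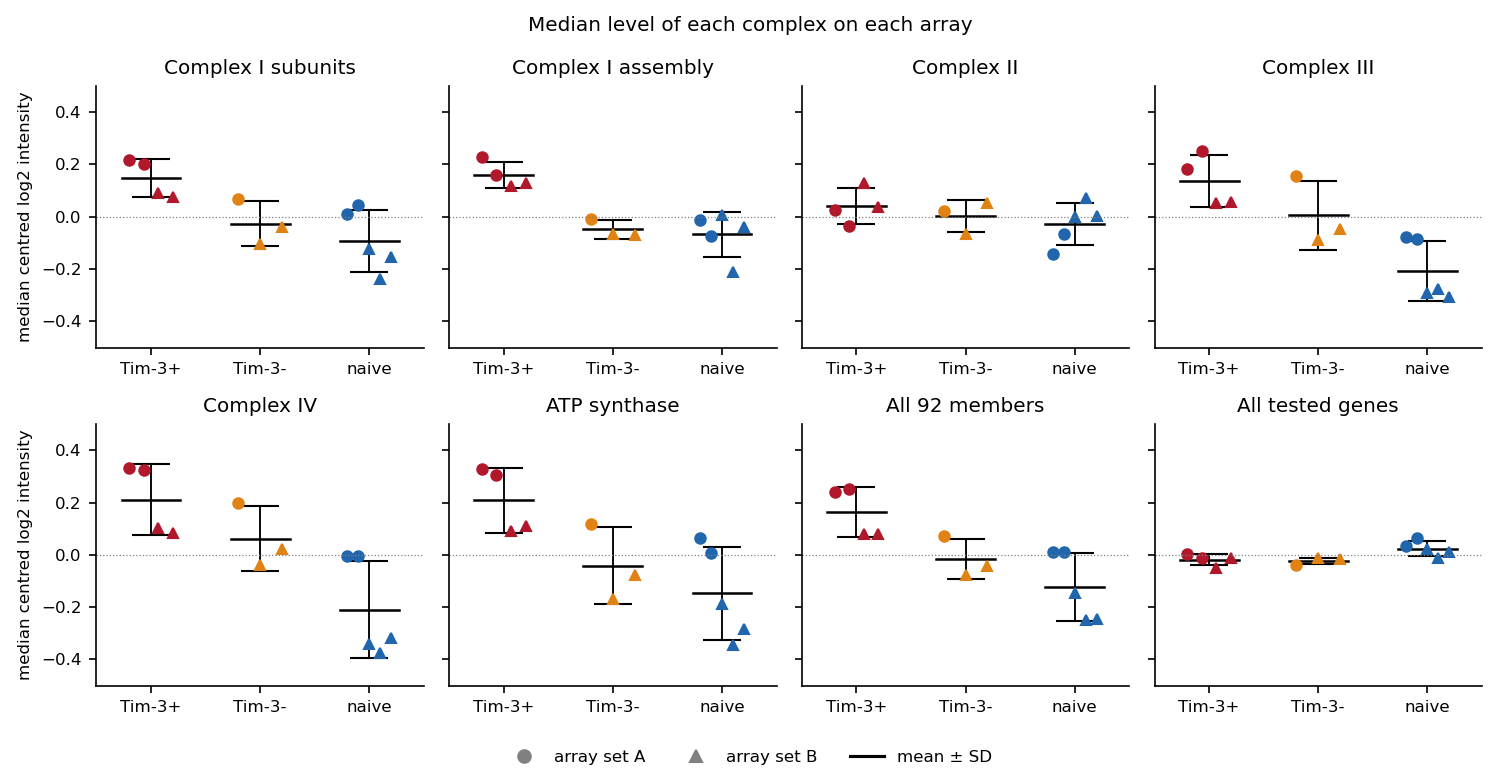
Median over the members of each complex of the log2 intensity, after centring each gene on its mean over the 12 arrays, on each array of Tim-3+ TIL, Tim-3- TIL and naive cells (left to right). Circles are arrays of set A, triangles arrays of set B, and bars the mean ± SD. Over all 92 members Tim-3+ arrays lie between 0.08 and 0.25, Tim-3- arrays between -0.08 and 0.07 and naive arrays between -0.25 and 0.01, with set A above set B in each group, while the complex II medians overlap between the groups, at -0.14 to 0.13.

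The median over all members was 0.24, 0.25, 0.08 and 0.08 on the Tim-3+ arrays and 0.07, -0.08 and -0.04 on the Tim-3- arrays, against 0.01, 0.01, -0.14, -0.25 and -0.24 on the naive arrays. All Tim-3+ arrays lay above all others, and Tim-3- and naive arrays overlapped. Tim-3+ replicates 1 and 2, both of set A, had the highest medians, and their Tyrp1 was the highest and the lowest of the group. The part of melanoma genes in the medians was not tested.

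The difference between the array sets was uneven along the chain. It was largest in the membrane part of ATP synthase, where the median member was 0.58 higher in set A than in set B and 4 of 8 members exceeded 0.5. The median was 0.24 in complex IV, 0.20 in the complex I accessory subunits, 0.03 in the complex I core and -0.04 in complex II. Uqcrq and Uqcr11 of complex III were higher in set A by 1.18 and 0.89, and Atp5l, the g subunit of ATP synthase, by 0.82.

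The 3 genes of the c subunit, which forms the rotor ring, encode the same mature protein and differed in this respect. Atp5g1 and Atp5g2 were higher in set A by 1.01 and 1.23, and Atp5g3 by 0.08. Atp5g3 read 12.41, 12.40, 12.35 and 12.30 in Tim-3+ TIL and 12.28, 12.20 and 12.21 in Tim-3- TIL, against 12.01, 12.01, 12.00, 11.91 and 11.90 in naive cells. Both TIL groups lay above naive cells, and its log2 change was 0.40 ± 0.08 in Tim-3+ TIL (adjusted p = 0.000640) and 0.26 ± 0.08 in Tim-3- TIL (adjusted p = 0.0231). The second call was lost without Tim-3- replicates 1 or 3 or naive replicate 5.

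Atp5g1 read 10.94, 10.87, 9.87 and 10.16 in Tim-3+ TIL and 10.21, 9.47 and 9.63 in Tim-3- TIL, against 10.43, 10.40, 9.31, 9.02 and 8.97 in naive cells. All 3 groups overlapped when the sets were ignored. Its log2 change in Tim-3+ TIL against naive was 0.84 ± 0.34 (adjusted p = 0.0621) and in the blocked fit 0.74 (adjusted p = 0.000294). Between the TIL groups it was 0.69 ± 0.38 (adjusted p = 0.312) and 0.52 in the blocked fit (adjusted p = 0.0239). Atp5g2 read 11.08, 11.09, 9.65 and 9.91 in Tim-3+ TIL and 10.61, 9.35 and 9.67 in Tim-3- TIL, against 10.99, 11.13, 10.11, 9.81 and 9.58 in naive cells. Its Tim-3+ and naive arrays overlapped within each set, and its log2 change in Tim-3+ TIL against naive was 0.11 ± 0.40, or -0.01 in the blocked fit. In Tim-3- TIL against naive it was -0.45 ± 0.43 (adjusted p = 0.473), and -0.36 in the blocked fit, where it passed (adjusted p = 0.0327). Uqcr11 changed by 0.53 between the TIL groups in the blocked fit (adjusted p = 0.00728), and the value for Uqcrq was 0.42 (adjusted p = 0.0960).

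**Figure D5:**
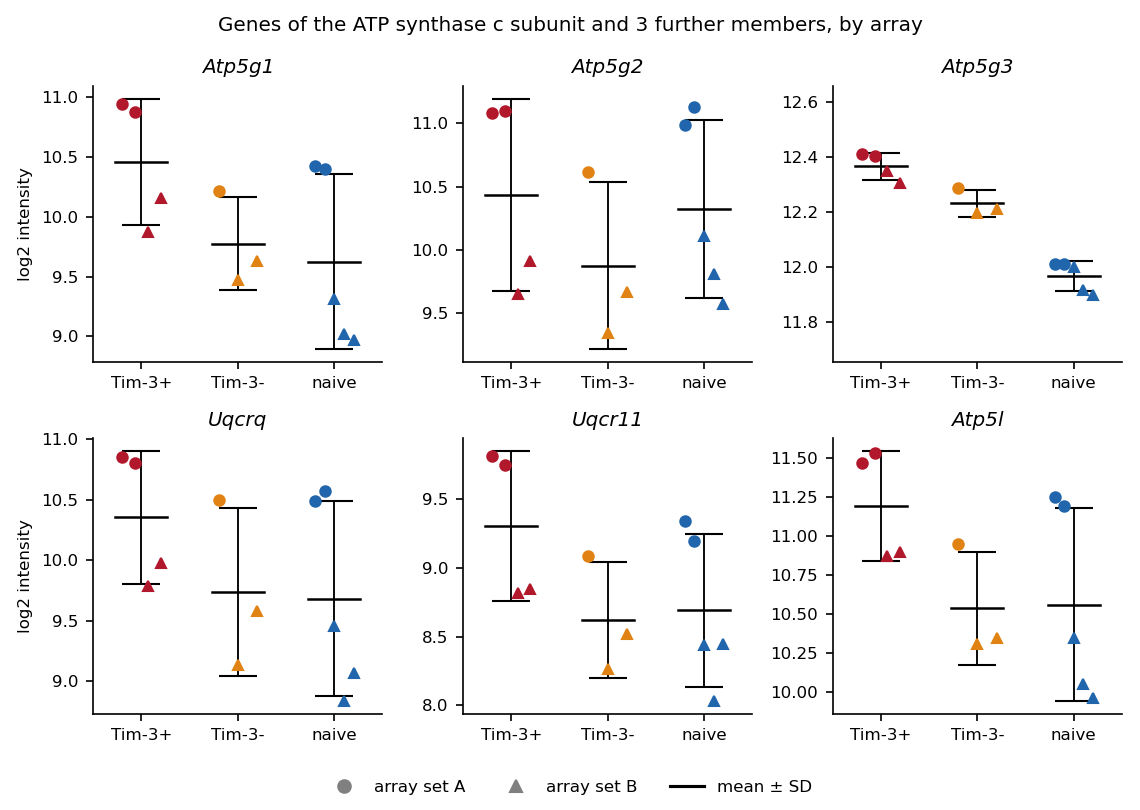
Log2 intensity of the 3 genes of the ATP synthase c subunit and of Uqcrq, Uqcr11 and Atp5l on each array of Tim-3+ TIL, Tim-3- TIL and naive cells (left to right). Circles are arrays of set A, triangles arrays of set B, and bars the mean ± SD. The circles lie above the triangles of their group, by 0.82 to 1.23 on average in all genes but Atp5g3. In Atp5g3 the average is 0.08, and the arrays fall by group.

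Genes around the chain that are not members were read against the same shares of all genes. Of 35 assembly factors outside the symbol rule, 4 were higher and 1 lower in Tim-3+ than in Tim-3- TIL (11.4% and 2.86%, against 7.77% and 5.77% of all genes). The 4 were the complex III factors Uqcc1 and Uqcc2 (log2 change 0.56 ± 0.14 and 0.80 ± 0.19), the complex II factor Sdhaf3 (0.68 ± 0.12) and the complex I factor Foxred1 (0.44 ± 0.12). The complex II factor Sdhaf1 fell by 0.53 ± 0.15. Against naive, 7 were higher and 5 lower in Tim-3+ TIL (20% and 14.3%, against 20.1% and 21.4% of all genes), and 5 were higher and 14 lower in Tim-3- TIL (14.3% and 40%, against 16.1% and 18.3%). The copper chaperones Cox11, Cox17 and Sco1 of complex IV rose in both, by 0.96, 0.64 and 0.83 in Tim-3+ TIL and by 1.04, 0.50 and 0.96 in Tim-3- TIL. Tmem126b, a complex I assembly factor, fell by 1.61 ± 0.16 in Tim-3+ TIL and by 2.07 ± 0.18 in Tim-3- TIL.

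Of 9 genes of other routes into the chain and of ADP and phosphate exchange, 2 were higher in Tim-3+ TIL than in the Tim-3- group (22.2%, against 7.77% of all genes). Gpd2, the mitochondrial glycerol 3-phosphate dehydrogenase that passes electrons to ubiquinone past complex I, read 12.10, 11.96, 11.91 and 12.07 in Tim-3+ TIL and 10.43, 10.69 and 10.83 in Tim-3- TIL, against 9.95 to 10.33 in naive cells. The groups did not overlap, and its log2 change between the TIL groups, 1.36 ± 0.13 (adjusted p = 8.78e-06), was beyond that of any member. Etfb, a subunit of the electron transfer flavoprotein, rose by 0.89 ± 0.21. Against naive, 5 were higher (55.6%, against 20.1% and 16.1% of all genes) and 1 lower in each TIL group, and the 1 was Dhodh, an enzyme of pyrimidine synthesis.

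Of 13 citrate cycle genes, 1 was higher in Tim-3+ TIL than in the Tim-3- group, the fumarase gene Fh1 (0.39 ± 0.11), a share of 7.69% that is near the 7.77% of all genes. Against naive, 5 were higher and 1 lower in Tim-3+ TIL (38.5% and 7.69%, against 20.1% and 21.4% of all genes) and 4 and 1 in Tim-3- TIL (30.8% and 7.69%, against 16.1% and 18.3%). Idh3a, of the NAD-dependent isocitrate dehydrogenase, rose by 1.07 ± 0.16 in Tim-3+ TIL and by 0.72 ± 0.17 in Tim-3- TIL, while the NADP-dependent Idh2 fell by 2.12 ± 0.19 and 1.56 ± 0.20. Of 13 regulators of mitochondrial gene expression, 1 was higher in Tim-3+ TIL than in the Tim-3- group, the mitochondrial ribosomal RNA methyltransferase Tfb1m (0.71 ± 0.12), again 7.69%. Against naive, 3 were higher and 6 lower in Tim-3+ TIL (23.1% and 46.2%, against 20.1% and 21.4% of all genes). In Tim-3- TIL 2 were higher and 7 lower (15.4% and 53.8%, against 16.1% and 18.3%), so the shares higher were close to those of all genes. The coactivators Ppargc1b and Pprc1 and the factor Nrf1 were among the lower ones, by -1.84 ± 0.14, -0.85 ± 0.10 and -0.43 ± 0.08 in Tim-3+ TIL and by -1.76 ± 0.15, -0.72 ± 0.11 and -0.34 ± 0.09 in Tim-3- TIL. Gabpb1, a subunit of the ETS factor GABP, rose by 0.88 ± 0.18 and 1.08 ± 0.20. Ppargc1a was called higher in Tim-3+ TIL, but lay at or below 5.22 on all arrays, under the level that may be background.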

How the data were processed

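The authors deposited 1 linear intensity per probe set and array, made with RMA and the affy package per the submitters' processing notes. Versions of both, the step that made the values linear and the joint or separate normalization of arrays were not given in the sources. The table holds 45101 probe sets, of which the platform annotation names 1 gene for 34945, several for 932 and none for 9160, beside 64 controls. Log2 was taken of each deposited intensity, and a gene took the probe set naming only that gene with the highest mean, with no filter on dim genes. This gave 18193 genes, 9010 of them with several probe sets. Of the 92 members 52 had several, and 184 probe sets in all. RMA summaries compress small differences and give no detection calls, and the number of arrays limits the precision.

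One limma fit (version 3.58.1, R 4.3.3) of 3 group means over 12 arrays gave all contrasts, with default empirical Bayes, two-sided tests and Benjamini-Hochberg adjustment over all genes. Changes are ± SE of the fit and levels ± SD. Tables and figures used pandas 2.3.3, numpy 2.4.6 and matplotlib 3.10.9 in Python 3.11.15. The fit was tested on simulated data. Members, lists, array sets, alternatives and the naming rule were chosen with earlier results of these data known.

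Named members were those called between the TIL groups, the 2 largest changes in each direction and complex among members called against naive, a fixed set of 18 measured subunits such as Sdha and Cox4i1, and the isoform groups, 51 genes. Other members named, such as Ndufs5, Uqcr11, Uqcrq and Atp5l, were chosen after their values were seen. Alternatives were the value per gene, quantile normalization, a filter on dim genes, array weights, trend, fits of 2 groups, blocks and leaving out each array.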

Additional observations from a re-analysis of the deposited data

Results flagged for a closer look

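Among the 51 named members, 102 groups of 4 or 5 arrays were examined for a single array far from the rest of its group, and 6 values stood out. Chance gives about 1 in 20 such groups, so 6 of 102 is near what chance gives. In naive replicate 3, Ndufaf7 lay at 7.9316, above the 7.7161 to 7.7736 of the other naive arrays, Sdha at 12.1145, below their 12.199 to 12.2212, and Cox4i2 at 5.7417, below their 6.2517 to 6.4342. In Tim-3+ replicate 3, Ndufa10 lay at 11.0505, below the 11.23 to 11.2382 of the other Tim-3+ arrays, and Cox4i2 at 6.1097, below their 6.2586 to 6.2759. In Tim-3+ replicate 1, Atp5d lay at 12.0644, below the 12.1477 to 12.1618 of the others. The causes were not tested.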

How the results depend on the processing

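The median change over the members kept its sign and moved by less than 0.109, the SD between arrays, in every alternative tried. Leaving out 1 array gave medians of 0.134 to 0.170 for Tim-3+ against Tim-3- TIL, 0.021 to 0.101 for Tim-3- TIL against naive and 0.242 to 0.320 for Tim-3+ TIL against naive. Counts of called members moved more. The share of all genes called moves with the setting too, so these counts are not read as results about the members. For Tim-3+ against Tim-3- TIL, the 9 higher members were 3 to 10 when 1 array was left out (4.99% to 7.66% of all genes). They were 19 with the array sets as a block (10.8% of all genes) and 3 in set B alone (6.41% of all genes), where fewer arrays were fitted. For Tim-3- TIL against naive, the 17 higher members were 10 to 18 when 1 array was left out and 7 in set A alone, and the 3 lower members were 1 to 3 when 1 array was left out, and 6 with either the mean of the probe sets or the most variable one. For Tim-3+ TIL against naive, the 38 higher members were 31 to 44 when 1 array was left out and 23 in set A alone, and the 6 lower members were 5 to 6 when 1 array was left out and 3 in either set alone. Deviations of arrays with equal replicate numbers correlated between -0.15 and 0.413 across genes. Arrays with unequal numbers were not compared, and equal numbers can fall in different array sets. Whether equal numbers pair the samples was therefore not settled. With the numbers as a replicate block, 16 members were higher between the TIL groups (8.58% of all genes) and 11 in Tim-3- TIL against naive (16.6% of all genes). The probe set turned 12 single values. With the most variable one, Cox7c changed by 0.467 between the TIL groups, Cycs by -0.197 between the TIL groups, -0.879 in Tim-3- TIL and -1.08 in Tim-3+ TIL against naive, Atp5c1 by -0.833 in Tim-3- and -1.22 in Tim-3+ TIL, and Ndufab1 by -1.61 and -1.58. With the mean of the probe sets, Atp5c1 changed by -0.401 in Tim-3- and -0.515 in Tim-3+ TIL, and Ndufab1 by -0.708 and -0.395. These probe sets of Cycs and Ndufab1 are dim. Of the named calls, 16 of 32 in Tim-3+ TIL against naive and 4 of 18 in Tim-3- TIL held in all alternatives, and each of the 9 between the TIL groups was lost in at least 1.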

Other observations

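Probe sets that name a member together with a pseudogene or a close copy were left out of the values, since their signal cannot be divided between the genes. Several were bright and differed between the groups. The probe set of Ndufs5 and its pseudogene Ndufs5-ps gave 11.11 ± 0.20 in Tim-3+ TIL and 10.49 ± 0.16 in Tim-3- TIL, against 10.57 ± 0.29 in naive cells (log2, mean ± SD), a difference of 0.62 between the TIL groups, near the 0.57 of the probe set naming Ndufs5 alone. The probe set of Ndufs6, a complex I subunit with no other value here, and its copy Ndufs6b gave 11.42 ± 0.10, 11.04 ± 0.16 and 10.96 ± 0.26 in the same order of groups. That of Ndufa11, a subunit of the membrane arm, and Ndufa11b gave 10.29 ± 0.56, 9.67 ± 0.50 and 9.45 ± 0.66.

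Ndufb4, an accessory subunit of complex I, read differently by probe set. The 2 bright probe sets it shares with Ndufb4b and Ndufb4c were higher in Tim-3+ TIL than in the Tim-3- group by 0.41 and 0.42, while the dimmer one naming Ndufb4 alone gave -0.50 (adjusted p = 0.261). A second probe set of the complex II anchor Sdhc gave 9.60 in Tim-3+ TIL, 8.85 in Tim-3- TIL and 9.17 in naive cells, a difference of 0.74 between the TIL groups, where the brighter one used differed by 0.08. Which transcripts these probe sets read was not tested.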
